A study of Drosophila melanogaster with 11 samples.

Results

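The mitochondrial ribosomal protein genes of Drosophila were followed in cultured S2 cells, a line of hemocyte-like character derived from fly embryos. Members were all gene symbols in the RNA-seq files that begin with mRpL, for the large subunit, or mRpS, for the small subunit. This rule selected 72 of 16509 gene symbols, of which 46 belong to the large and 26 to the small subunit. Expression was measured in 4 polyA RNA-seq libraries of S2 cells, of which 2 came from cells with knockdown of dTet and 2 from control cells for that knockdown. dTet is the fly gene of the Tet family of dioxygenases, which oxidise methylcytosine to hydroxymethylcytosine. RNA hydroxymethylation was measured by hMeRIP-seq, in which total RNA is pulled down with an antibody to hydroxymethylcytosine and sequenced. The deposited peak lists of 1 sample of S2 cells edited by CRISPR at dTet and 1 sample edited at yellow, a pigmentation gene used as the editing control, were used. All groups were unedited or edited S2 cells kept in serum-free medium at one temperature, and the pull-downs of both edited samples used the same rat monoclonal antibody. The knockdown and control reagents, and whether the edited cells were clones or mixed populations, were not given in the sources used here.

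The mitochondrial ribosome translates the few mRNAs encoded in the mitochondrial genome, which specify core subunits of the respiratory chain and of the ATP synthase. Its RNAs are transcribed in the organelle, whereas its proteins are encoded in the nucleus, made on cytoplasmic ribosomes and imported. Some of its proteins descend from those of the bacterial ribosome and keep their bacterial numbers, and others, with higher numbers, joined the particle in the course of mitochondrial evolution.

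Values are given as signal, which is the mean number of reads per 40-bp bin of exon multiplied by 1 factor per library. Levels are thus per length of exon, but signal also differed with exon width. Over all genes tested, its median was 0.582 in exons under 80 bp and 2.89 in exons of 400 bp or more. Comparisons of level between genes were not adjusted for exon width. One read per bin corresponded to a signal of 0.3722 and 0.4765 in dTet knockdown libraries 1 and 2, against 0.3398 and 0.3904 in control libraries 1 and 2, so that relative depth was 1.28 and 1, against 1.402 and 1.221. Absolute depth is unknown. The targeted gene dTet (listed as CG43444) had a signal of 4.88 and 6.60 in the knockdown libraries, against 6.93 and 8.01 in the control libraries, a log2 change of -0.34 with a standard error of 0.21 (-0.15 without knockdown library 1 and -0.52 without knockdown library 2). Both knockdown values lay below both control values, which was so for 17.4% of all genes tested. This difference did not pass the test (limma, adjusted p = 0.9995), so a loss of dTet RNA was not shown in these libraries. As 0 of 6050 genes passed that test, it does not show that dTet RNA was unchanged either. Of the marker lists, the 11 hemocyte genes summed to 242 and 267 in the knockdown libraries, against 273 and 282 in the control libraries, and the 10 muscle genes to at most 0.492 in any library. In the hemocyte list Cg25C, vkg and Nplp2 had 54.0 to 78.1 in each library, whereas NimC1 had only 0.121 to 0.329. Among 10 neuron and glia genes, the syntaxin gene Syx1A gave 18.5 and 15.9 in the knockdown libraries, against 23.4 and 16.6 in the control libraries, out of list sums of 26 and 23.1, against 29.4 and 24.2. Other genes of that list were detected as well, with elav, moody and nrv2 at 1.55 to 3.19 over the libraries. Their part in the results was not tested.

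Members were detected at low to moderate levels. The median signal over all 72 members was 1.80 and 1.99 in the knockdown libraries, against 2.57 and 1.67 in the control libraries, while over all 6050 genes tested it was 2.90 and 2.92, against 3.09 and 2.93. By this median, control library 1 was the highest and control library 2 the lowest for the members, so the 2 controls spanned both knockdown libraries. Together the members took 0.145% and 0.159% of the summed signal of the knockdown libraries, against 0.180% and 0.154% in the control libraries. By this share knockdown library 1 was the lowest, so here the controls did not span both knockdown libraries. Mean signal over the 4 libraries ran from 0.288 for mRpL34 to 11 for mRpL30, with a median of 1.98 and quartiles of 1.36 and 2.71. In all, 64 of the 72 members reached the mean signal of 1 needed for testing, 41 of them in the large and 23 in the small subunit. The median member held 94 and 87.5 reads summed over its bins in the knockdown libraries, against 150 and 86.5 in the control libraries. A read can fall in more than 1 bin, so these sums are not independent reads.

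Both subunits stood at nearly the same level. The median signal of the large subunit was 1.79 and 2.03 in the knockdown libraries, against 2.38 and 1.64 in the control libraries. The median signal of the small subunit was 1.82 and 1.92 in the knockdown libraries, against 2.69 and 1.79 in the control libraries. The ratio of the large to the small subunit median was therefore 0.984 and 1.06, against 0.885 and 0.916, so the large subunit was below the small one in 3 of 4 libraries, by margins smaller than the difference between the control libraries. The large subunit held both extremes, while the mean signals of the small subunit ran only from 0.886 to 4.71. The median member lay far below the 88 ribosomal proteins of the cytoplasm, whose median signal was 53.0 and 59.1 in the knockdown libraries, against 60.3 and 49.8 in the control libraries. That median was 29.4 and 29.7 times the members' median in the knockdown libraries, against 23.5 and 29.8 times in the control libraries. The 40 nuclear genes of oxidative phosphorylation, most but not all of which have partner subunits made by the mitochondrial ribosome, stood at 3.36 and 3.53 times the members' median, against 2.92 and 3.58 times.

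**Figure D1:**
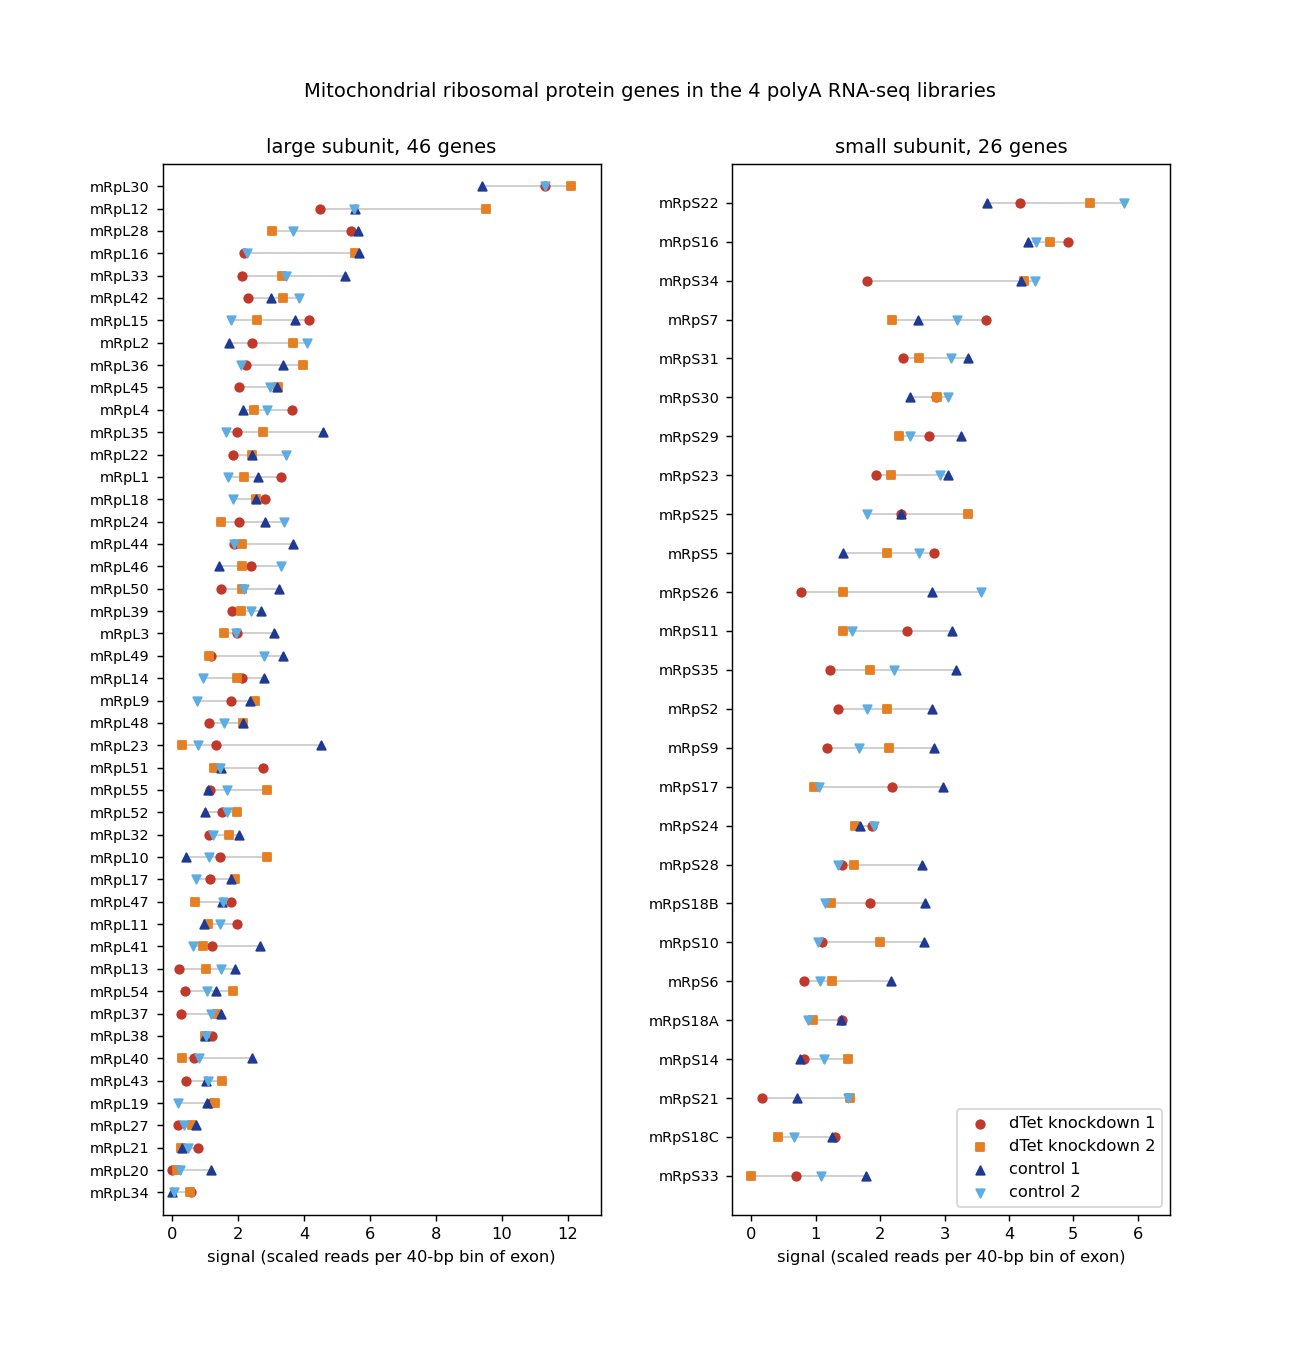
Signal of each of the 46 large and 26 small subunit genes in the 4 libraries (x axis, scaled reads per 40-bp bin of exon, linear, with separate ranges for the 2 panels), ordered by mean signal. mRpL30 stands apart at the top at 9.40 to 12.1, and the median log2 gap is 0.40 between the 2 dTet knockdown libraries and 0.37 between the 2 controls.

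In the large subunit, mRpL30 had the highest signal, at 11.3 and 12.1 in the knockdown libraries, against 9.40 and 11.3 in the control libraries. Its mean was 1.76 times that of the next member and 5.55 times that of the median member, and it was the highest member in all 4 libraries. The gene lies on X from 4541903 to 4542678 of the dm3 build and encodes a protein of bacterial descent. mRpL12, whose bacterial counterpart forms the stalk that recruits translation factors, had a signal of 4.47 and 9.53 in the knockdown libraries, against 5.54 and 5.52 in the control libraries. Here knockdown library 2 was high, while knockdown library 1 lay below both controls. mRpL28 had 5.41 and 3.01 in the knockdown libraries, against 5.65 and 3.65 in the control libraries. mRpL16, whose bacterial counterpart helps to position tRNA, had 2.18 and 5.53 in the knockdown libraries, against 5.67 and 2.26 in the control libraries. In mRpL28 and mRpL16 the libraries of the same condition thus differed more than the conditions did. mRpL33 had 2.12 and 3.34 in the knockdown libraries, against 5.23 and 3.44 in the control libraries. Among these genes below mRpL30, mRpL12 exceeded mRpL33 in all 4 libraries, and no other pair kept its order throughout.

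The lowest large subunit genes rested on few reads. mRpL34 had a signal of 0.579 and 0.529 in the knockdown libraries, against 0 and 0.0434 in the control libraries. These values stand for 14 and 10 reads in bins, against 0 and 1, and the count of 0 allows a signal of up to 0.113. All of this signal lay in a 258-bp exon, of which 31 bp overlap an exon of CG8414, and the other exon of mRpL34 had none. The other exons of CG8414 had 2.10 and 1.32 in the knockdown libraries, against 1.07 and 2.26 in the control libraries. How many of the reads belong to CG8414 was not measured. Signal listed for mRpL34 was thus seen mainly in the knockdown libraries, from too few reads to enter the test. mRpL20 showed the opposite, with 0 and 0.149 in the knockdown libraries, against 1.17 and 0.244 in the control libraries, from 0 and 5 reads in bins, against 55 and 10. mRpL21 had 0.788 and 0.255 in the knockdown libraries, against 0.284 and 0.472 in the control libraries. mRpL27, whose bacterial counterpart reaches into the peptidyl transferase centre, had 0.179 and 0.591 in the knockdown libraries, against 0.720 and 0.344 in the control libraries. For both genes the libraries of the 2 conditions overlapped. mRpL19 had 1.17 and 1.29 in the knockdown libraries, against 1.04 and 0.174 in the control libraries, and control library 2 alone stood low.

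In the small subunit, mRpS22, a protein without a bacterial counterpart, was highest by mean. Its signal was 4.17 and 5.26 in the knockdown libraries, against 3.66 and 5.78 in the control libraries. mRpS16, of bacterial descent, had 4.91 and 4.64 in the knockdown libraries, against 4.30 and 4.42 in the control libraries. The means of these 2 genes differed by less than the spread of mRpS22 between the controls, and mRpS16 was the most even of the highest genes. mRpS34 had 1.80 and 4.24 in the knockdown libraries, against 4.19 and 4.40 in the control libraries, with knockdown library 1 alone low. mRpS7 had 3.64 and 2.18 in the knockdown libraries, against 2.59 and 3.19 in the control libraries. mRpS31 had 2.35 and 2.61 in the knockdown libraries, against 3.37 and 3.10 in the control libraries. For mRpS7 the conditions overlapped, and for mRpS31 both knockdown values lay under both controls.

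At the low end of the small subunit, mRpS33 had a signal of 0.687 and 0 in the knockdown libraries, against 1.78 and 1.08 in the control libraries. Its 0 in knockdown library 2 allows a signal of up to 0.110, and the gene was below the level for testing. mRpS21 had 0.172 and 1.54 in the knockdown libraries, against 0.706 and 1.5 in the control libraries. mRpS14 had 0.815 and 1.5, against 0.761 and 1.13. For mRpS21 and mRpS14 library 2 was the higher one of each condition. The 3 genes mRpS18A, mRpS18B and mRpS18C encode paralogs of the bacterial S18 protein, which sit at different places in the mammalian particle. mRpS18B had 1.84 and 1.23 in the knockdown libraries, against 2.69 and 1.15 in the control libraries. mRpS18A had 1.41 and 0.953, against 1.4 and 0.885, and mRpS18C had 1.30 and 0.408, against 1.26 and 0.669. The order of B, A and C held in 4 of 4 libraries, although in single libraries neighbours differed by less than the libraries of a condition did.

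The next question was whether dTet knockdown altered the members' RNA. No member passed the test (0 of 64 tested, limma, adjusted p under 0.05), and 0 of 6050 genes did in all, which is 0.0%. The smallest adjusted p of a member was 0.9025, for mRpL49. Without adjustment, 5 of 64 members (7.81%) had a p under 0.05, which compares with 245 of 6050 genes, or 4.05%. Of these 5 members, 4 were lower in knockdown cells (2.99% of all genes) and 1 was higher (1.06% of all genes). Among them, mRpL13 reached the mean signal for testing only through the control libraries, and mRpL10 only through the knockdown libraries. The median log2 change, knockdown minus control, on log2(signal + 1), was -0.13 over the members and -0.03 over all genes tested. Changes of low genes are understated on this scale, and the members' median was -0.20 with a pseudocount of 0.1 and -0.06 with one of 5. Members ranged from -1.0 to 0.84, with 25 values above 0 and 39 below it. The values below 0 made up 60.9% of members, against 54.7% of all genes. Both knockdown values lay below both control values for 12 members (18.8%, against 17.4% of all genes), and above them for 4 members (6.25%, against 13.2%). Nothing in the labels tells whether the replicates came from separate cultures, and p-values therefore measure only the spread between these samples, which may be technical. In bulk RNA, fewer cells expressing a gene and less RNA per cell cannot be told apart.

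The members were then set beside other genes within their range of size and level. Among 3491 other genes within the members' range of exonic length (325 to 2076 bp) and mean signal, 2517 were tested and had a median log2 change of -0.10. These genes were longer than the members, with a median exonic length of 1259 bp, against 776 bp for the members. Of the 2517 tested, 64.3% had a change below 0 and 23.0% had both knockdown values below both control values. Both lay above both control values for 9.34%, and 6.32% had an unadjusted p under 0.05 (limma). The members' values of 60.9%, 18.8% and 7.81% lay close to these shares, and 6.25% of members (4 genes) had both knockdown values above both controls. The median gap on the log2 scale between the knockdown libraries was 0.40 for members, 0.30 for the genes within that range and 0.22 for all genes tested. Between the control libraries it was 0.37, 0.30 and 0.25. The median absolute change was 0.22 for members, 0.20 for the genes within that range and 0.15 for all genes tested, and being a difference of means of 2 libraries it is narrower than a gap between single libraries by construction.

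**Figure D2:**
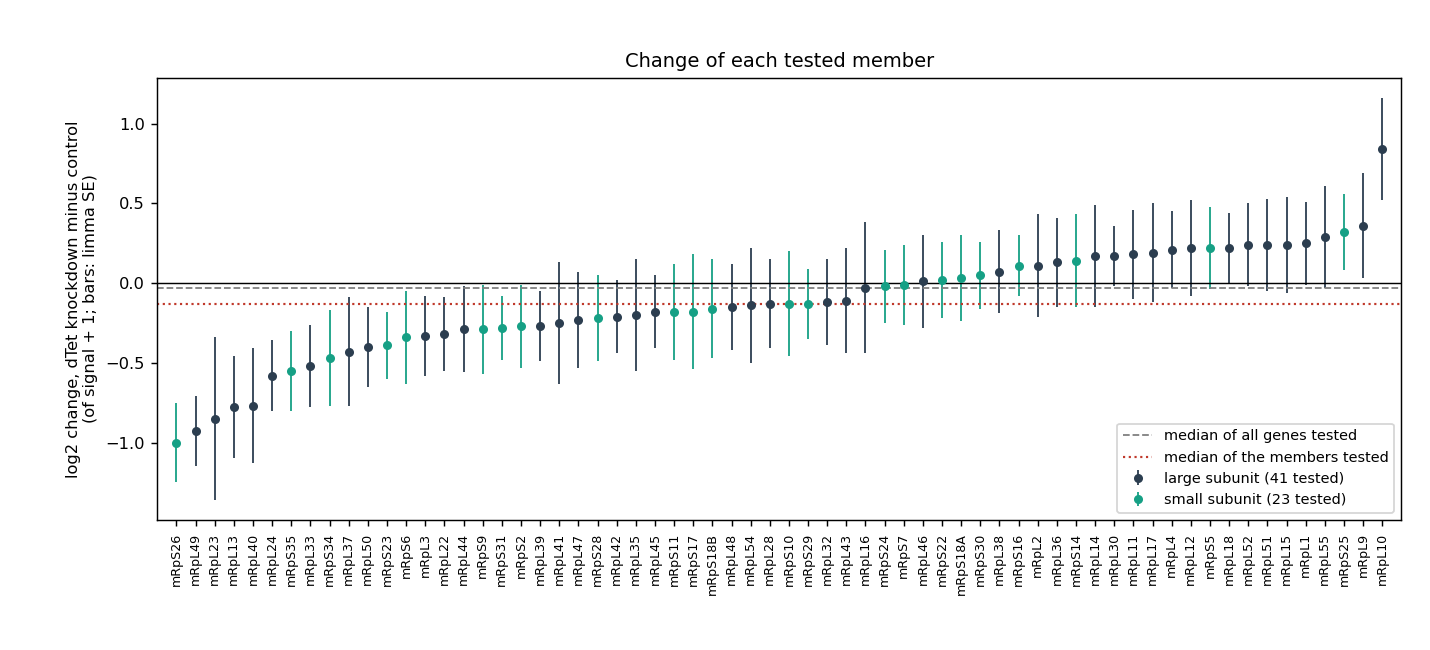
Log2 change of signal + 1, dTet knockdown minus control, of the 64 tested members in order of size (points), with the limma standard error (bars), coloured by subunit. Most bars cross 0, the members' median of -0.13 lies slightly under that of all genes (-0.03), and no member passed the test after adjustment.

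The shift of the members' median depended on single libraries. Between pairs of libraries, the median log2 difference of the members was -0.33 for knockdown 1 minus control 1, -0.02 for knockdown 1 minus control 2, -0.17 for knockdown 2 minus control 1 and 0.02 for knockdown 2 minus control 2. The 2 control libraries differed from each other by 0.22 (control 1 minus control 2), which is more than 3 of the 4 differences between conditions in size. The median change was 0.00 without control library 1 and -0.25 without control library 2, and it was -0.02 without knockdown library 1 and -0.16 without knockdown library 2. The level for testing was applied anew to the libraries kept, so these 4 medians cover different sets of members. Without control library 1, mRpL13, mRpL23 and mRpL40 dropped out, whose changes with all libraries were -0.78, -0.85 and -0.77. The genes of oxidative phosphorylation and the cytoplasmic ribosomal proteins had the same order of the control libraries, at 0.36 and 0.27 for control 1 minus control 2, whereas over all genes that difference was 0.04.

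**Figure D3:**
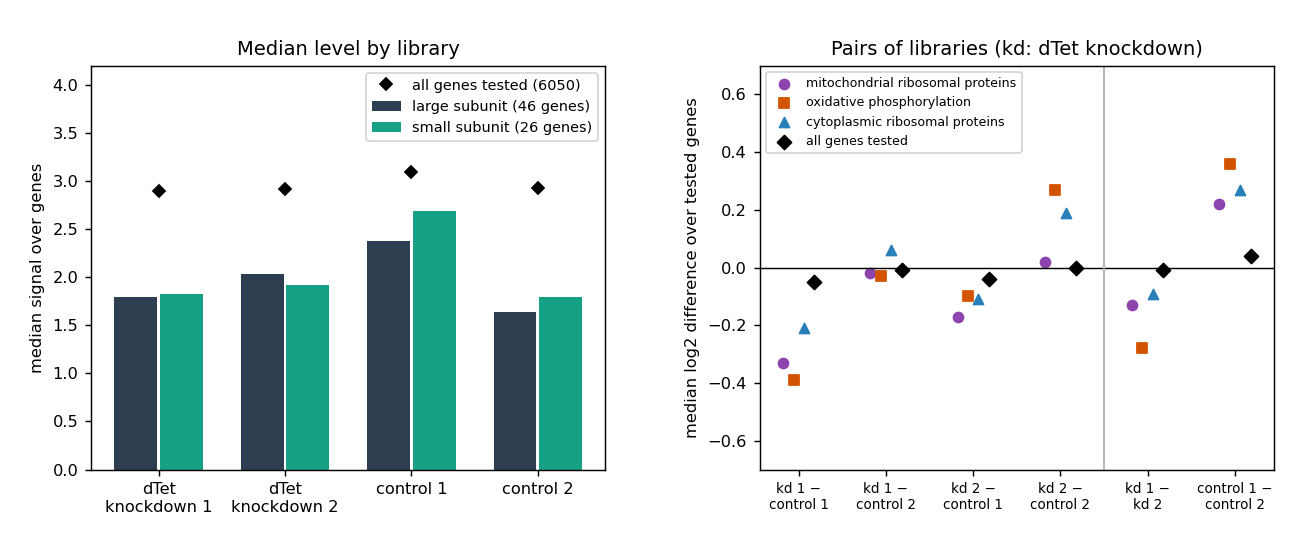
Left, median signal of the large and small subunit genes (bars) and of all genes tested (diamonds) in each library. Right, median log2 difference for each pair of libraries (the 4 dTet knockdown minus control pairs left of the vertical line, the replicate pairs right of it) for members, 2 other gene lists and all genes: control 1 minus control 2 (0.22 for members) is larger than 3 of the 4 knockdown minus control differences in size.

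For the large subunit, 0 of 41 tested members passed the limma test, 4 had an unadjusted p under 0.05, and the median log2 change was -0.12, with 18 members above 0 and 23 below. That median was -0.22 without control library 2 and 0.05 without control library 1, each over the members that then reached the level for testing. mRpL49, on X from 12801137 to 12801974, had the lowest value relative to control among the large subunit genes. Its signal was 1.17 and 1.10 in the knockdown libraries, against 3.36 and 2.77 in the control libraries, from 63 and 46 reads in bins, against 198 and 142. Both knockdown libraries were low and close together, with means of 1.13 ± 0.0541 in knockdown and 3.07 ± 0.419 in control cells (SD, n = 2 each). The log2 change of mRpL49 was -0.93 (SE 0.22) and had an adjusted p of 0.903 in the limma fit. mRpL23, whose bacterial counterpart lies at the exit of the peptide tunnel, had 1.31 and 0.301 in the knockdown libraries, against 4.52 and 0.781 in the control libraries. Control library 1 stood high and control library 2 lay between the knockdown libraries, and the log2 change of -0.85 had a standard error of 0.51 (-0.44 without knockdown library 2 and -1.67 without control library 2). mRpL13 had 0.186 and 1.03 in the knockdown libraries, against 1.89 and 1.47 in the control libraries, a log2 change of -0.78 (-0.40 without knockdown library 1 and -1.17 without knockdown library 2). mRpL40, a protein without a bacterial counterpart, had 0.651 and 0.286, against 2.41 and 0.820, a log2 change of -0.77 (-1.23 without control library 2). mRpL24, which in bacteria is among the first proteins to join the large subunit, had 2.01 and 1.49, against 2.81 and 3.38, a log2 change of -0.58. In these 3 genes both knockdown values lay below both control values, and the limma test gave each an adjusted p of 0.9995. mRpL13, mRpL23 and mRpL40 reached the mean signal for testing only through the control libraries, as their knockdown means were 0.609, 0.807 and 0.469.

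In the other direction, mRpL10, whose bacterial counterpart anchors the stalk formed by L12, had the highest value relative to control. Its signal was 1.46 and 2.86 in the knockdown libraries, against 0.414 and 1.10 in the control libraries. Both knockdown values lay above both controls, and the log2 change of 0.84 (SE 0.32, 0.55 without control library 1) had an adjusted p of 0.9995 in the limma fit. mRpL10 reached the mean signal for testing only through the knockdown libraries, as its control mean was 0.759. Its stalk partner mRpL12 had a log2 change of 0.22 with overlapping conditions. mRpL9 had 1.77 and 2.5 in the knockdown libraries, against 2.35 and 0.762 in the control libraries, a log2 change of 0.36. mRpL55 had 1.15 and 2.86, against 1.08 and 1.66, a log2 change of 0.29. mRpL1 had 3.31 and 2.16, against 2.59 and 1.70, a log2 change of 0.25. mRpL15 had 4.16 and 2.56, against 3.71 and 1.78, a log2 change of 0.24. In these 4 genes the conditions overlapped. The sign turned when 1 library was left out in mRpL9 (-0.10 without control library 2), in mRpL55 (-0.13 without knockdown library 2) and in mRpL15 (-0.02 without knockdown library 1 and -0.14 without control library 2).

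For the small subunit, 0 of 23 tested members passed the limma test, 1 had an unadjusted p under 0.05, and the median log2 change was -0.16, with 7 members above 0 and 16 below. That median was -0.41 without control library 2 and -0.04 without control library 1, each over the members that then reached the level for testing. mRpS26, a protein without a bacterial counterpart encoded on 3L from 18099678 to 18100598, had the lowest value relative to control among all members. Its signal was 0.778 and 1.43 in the knockdown libraries, against 2.80 and 3.57 in the control libraries, from 46 and 66 reads in bins, against 181 and 201. Both knockdown libraries lay far below both controls, with means of 1.10 ± 0.460 in knockdown and 3.18 ± 0.545 in control cells (SD, n = 2 each). The log2 change of mRpS26 was -1.0 (SE 0.25) and had an adjusted p of 0.9995 in the limma fit. mRpS35 had 1.22 and 1.84 in the knockdown libraries, against 3.18 and 2.22 in the control libraries, a log2 change of -0.55 (-0.36 without control library 1). mRpS23 had 1.94 and 2.17, against 3.06 and 2.93, a log2 change of -0.39. Both knockdown values lay below both controls in these 2 genes as well. mRpS34 had a log2 change of -0.47 (-0.02 without knockdown library 1 and -0.92 without knockdown library 2). mRpS6, with 0.814 and 1.25 in the knockdown libraries, against 2.17 and 1.07 in the control libraries, had a log2 change of -0.34 with overlapping conditions (-0.04 without control library 1 and -0.65 without control library 2). The adjusted p of each of these genes was 0.9995 (limma).

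mRpS35 is also the member nearest to dTet itself. It lies on 3L from 2780898 to 2782104, and the dTet gene starts 4102 bp away and runs from 2786206 to 2879157. The next member, mRpL23, lies 412503 bp from dTet, and both genes are among the 5 members of their subunit with the lowest log2 change. Whether their position has a part in these values was not tested.

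The small subunit genes with the highest log2 changes had small values. mRpS25 had 2.32 and 3.36 in the knockdown libraries, against 2.32 and 1.79 in the control libraries, a log2 change of 0.32. Knockdown library 1 and control library 1 were equal to the digits given, so the conditions only just failed to overlap. mRpS5 had 2.83 and 2.11, against 1.43 and 2.60, a log2 change of 0.22. mRpS14 had a log2 change of 0.14. mRpS16 had one of 0.11, with both knockdown values above both controls by a small margin. mRpS30, a protein that belongs to the large subunit in mammals, had 2.87 and 2.89, against 2.46 and 3.06, a log2 change of 0.05. Without control library 1 the log2 change was -0.06 for mRpS5, -0.00 for mRpS14 and -0.07 for mRpS30. No gene of this group passed the test (limma, adjusted p = 0.9995 for each).

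Grouped by descent, proteins with bacterial numbers (up to 36 in the large and 21 in the small subunit) and those with higher numbers did not have the same median. The 35 tested genes with bacterial numbers had a median log2 change of -0.01, with 17 above 0 and 18 below, and 4 of them (11.4%) had both knockdown values below both controls. The 29 tested genes with higher numbers had a median of -0.21, with 8 above 0 and 21 below, and 8 of them (27.6%) had both knockdown values below both controls. The share over all genes was 17.4%, and over the longer genes within the members' range it was 23.0%. With 1 library left out, the median of the genes with higher numbers went as far as -0.34 (without knockdown library 2) and -0.10 (without knockdown library 1), and that of the genes with bacterial numbers as far as -0.15 (without control library 2) and 0.11 (without control library 1). Each of these medians covers only the genes that reached the level for testing without that library. The difference between the 2 groups was not tested, and between control libraries alone they differed by 0.45 and 0.08 in the median (control 1 minus control 2).

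Exon by exon, the 72 members comprised 184 exon clusters, an exon cluster being a set of overlapping exons of a gene represented by its longest exon. A member had a median of 2 clusters and at most 7, and 8 members had a single one. Of the 120 clusters that reached a mean signal of 1, 0 passed the limma test adjusted over all 23023 exon clusters tested (0 of 23023, or 0.0%), and 7 had an unadjusted p under 0.05, of which 5 were lower in knockdown cells. Over all exon clusters the unadjusted share was 3.96%. Signal was highest in wide exons. The 54 member exons of 400 bp or more had a median signal of 2.48, and the 58 exons of at least 200 but under 400 bp one of 1.51. The 43 exons of at least 120 but under 200 bp and the 16 of at least 80 but under 120 bp stood at 0.848 and 0.944, and the 13 exons under 80 bp at 0.293. The same classes had 2.89, 1.91, 1.4, 1.11 and 0.582 over all genes tested. These medians are not on a par, since the 184 member exons include those of the 8 members below a mean signal of 1, while the other genes had all reached it. All 6 member exons without signal in any library were under 200 bp. Within a gene, the longest exon had more signal than the shortest in 53 of 64 members with several exons (82.8%, against 84.7% of 5252 genes).

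**Figure D4:**
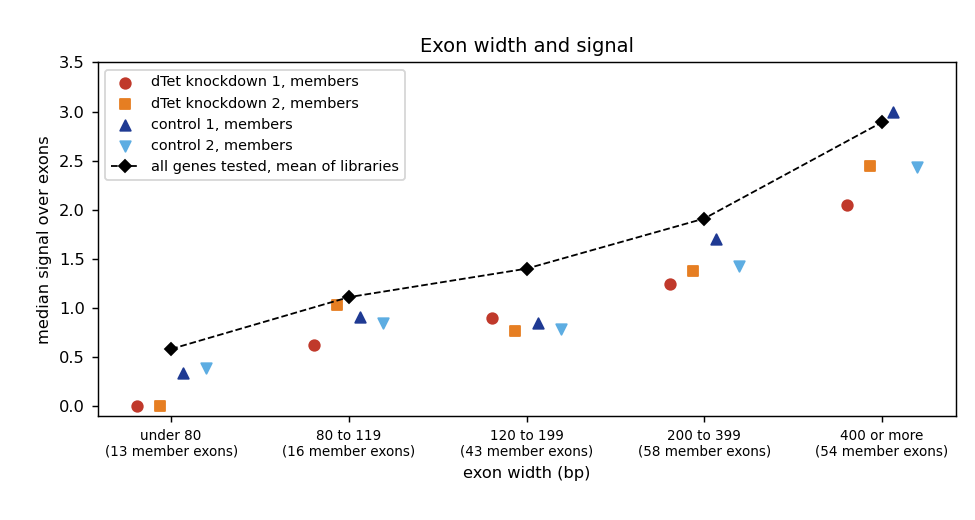
Median signal (y axis) of member exons by class of exon width (x axis) in each of the 4 libraries, with the median of all genes tested, averaged over the libraries, as a dashed line. The 13 member exons under 80 bp have a median of 0 in both dTet knockdown libraries, against 0.34 and 0.39 in the control libraries. Those control values are about the signal of 1 read in a bin. Medians of member exons of 400 bp or more lie between 2.05 and 3.0.

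Many members share exonic sequence with a neighbour. An exon overlapped an exon of another gene in 41 of 72 members (56.9%), against 2564 of 6050 genes tested (42.4%), with 26 of 46 in the large and 15 of 26 in the small subunit. The overlaps involved 44 exons and 42 partner genes and were short, with a median of 55 bp shared. Over 20% of the exonic length was shared in 7 of 72 members, against 662 of 6050 genes tested (10.9%). Over 50% was shared in 1 of 72 members, mRpS24, against 359 of 6050 genes tested. Partners included arm, which encodes the fly beta-catenin (81 bp shared with mRpL16), Psn, which encodes presenilin (46 bp with mRpL15), and RpII33, a subunit of RNA polymerase II (56 bp with mRpS23). mRpL18 overlapped ox, a gene of respiratory complex III, by 40 bp. The mean signal of the partner was above that of the member for 18 of 42 partners. Reads in a shared stretch were listed for both genes, so such values cannot be assigned to either.

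Of the shared exons, 7 in 5 members had over 50% of their length inside another gene, and 6 of them lay there wholly. The 331-bp exon of mRpS24 (3R, 19988550 to 19988881) lies wholly in an exon of CG6182, now TBC1d7 and is the 55.4% of mRpS24 that is shared. Its signal was 2.56 and 1.48 in the knockdown libraries, against 2.11 and 2.86 in the control libraries. The unshared exons of mRpS24 had 1.01 and 1.77, against 1.12 and 0.669, and the other exons of CG6182 had 0.890 and 1.76, against 1.23 and 0.645. The shared exon was above both in 3 of 4 libraries. mRpL13 showed the reverse. Its exons of 123 and 111 bp, which CG10602 also contains, had no signal in 3 and 4 of the libraries and 0.255 at most, although its unshared exon had 0.305 and 1.69 in the knockdown libraries, against 3.0 and 2.41 in the control libraries. The other exons of CG10602 stood between 4.2 and 5.29. The low mean of mRpL13 therefore includes 2 nearly empty exons, while its difference between conditions lies in the unshared one.

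In mRpS9, 2 exons of 161 and 162 bp lie wholly in exonic sequence of CG10092, now ArgRS-m, the mitochondrial arginyl-tRNA synthetase. The 161-bp exon had 0.521 and 0.762 in the knockdown libraries, against 2.79 and 0.312 in the control libraries, and the 162-bp exon had 1.12 and 1.91, against 4.08 and 0.625. Control library 1 was high in both, while the unshared exons of mRpS9 had 1.31 and 2.44, against 2.62 and 2.11, and the other exons of CG10092 had 0.362 to 0.816. In mRpS21 the 227-bp exon shared with CG8870 had 0 and 0.635 in the knockdown libraries, against 0.736 and 1.95 in the control libraries. The other exons of CG8870 were at 0 in all 4 libraries, whereas the unshared exon of mRpS21 had 0.319 and 2.31, against 0.680 and 1.12. In mRpS14 a 424-bp exon, of which 59.9% lies in Nat1, stayed at 0 to 0.497, while the other exons of Nat1 had 3.79 and 3.82 in the knockdown libraries, against 4.91 and 4.48 in the control libraries.

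**Figure D5:**
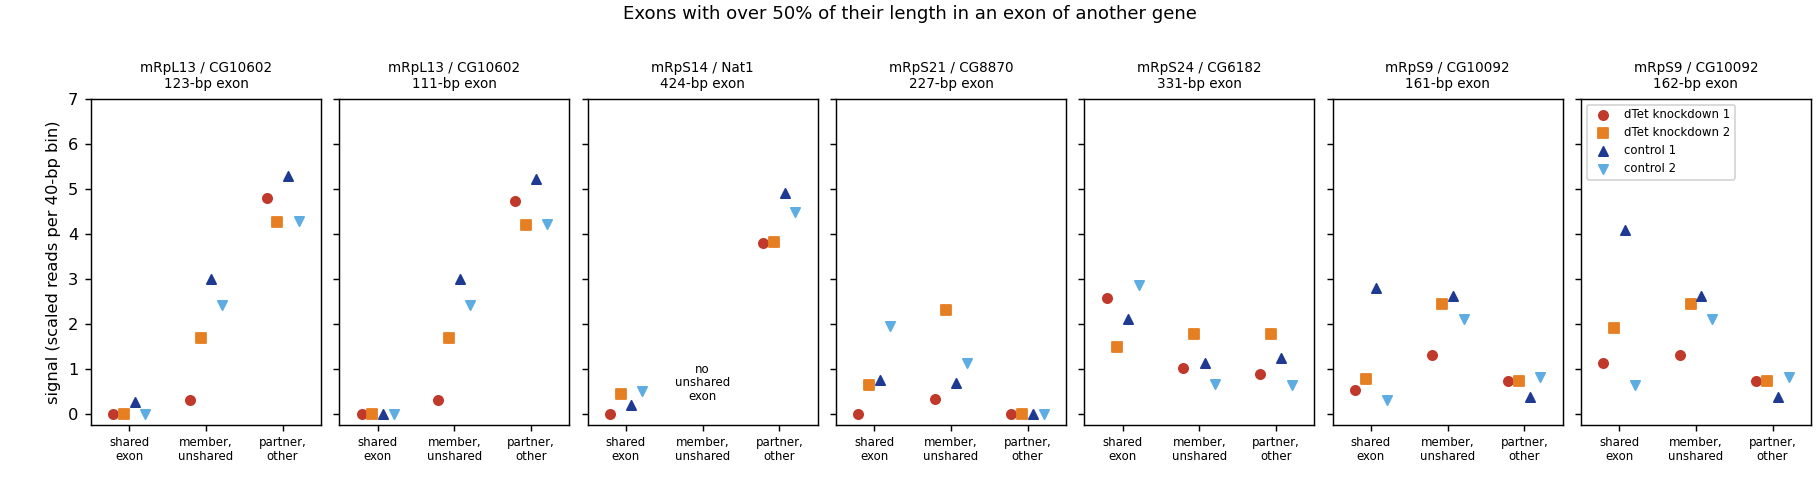
Signal in each library of the 7 member exons with over 50% of their length in another gene, beside the unshared exons of the member and the other exons of the partner (x axis). The shared exons of mRpL13 and mRpS14 lie near 0 although their partners reach 3.79 to 5.29, and all exons of mRpS14 overlap another gene, so it has no unshared value.

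Finally, the hMeRIP peak lists were searched for peaks in the members. No member had a peak in an exon in the dTet CRISPR list (0 of 72, Wilson 95% interval 0 to 5.07%) or in the yellow CRISPR list (0 of 72, the same interval), and no peak lay anywhere within a member's span. By the simpler limit of 3 counts for a count of 0, the share may reach 4.17%, and the Wilson bound is the wider of these approximations. Over all genes tested, 472 of 6050 (7.8%) had an exonic peak in the dTet list and 339 of 6050 (5.6%) in the yellow list. Members are short, with a median exonic length of 776 bp, against 2011 bp over all genes tested. Among the 3491 other genes in the members' range of length and signal, 38 (1.09%) had an exonic peak in the dTet list and 23 (0.659%) in the yellow list, and both shares lie inside the interval for the members. These genes are longer than the members, at a median of 1259 bp, so the share at the members' own length was not measured. With 1 sample per list there was no replicate check, and the lists gave no height or p-value for a peak. Intervals cover counting error only.

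Genes of other mitochondrial pathways had no exonic peak in either list, at 0 of 40 genes of oxidative phosphorylation, 0 of 9 mitochondrial translation factors, 0 of 18 mitochondrial tRNA synthetases and 0 of 13 genes of mitochondrial genome expression. The upper Wilson bounds of these shares were 8.76%, 29.9%, 17.6% and 22.8% in each list. All lie above the shares over all genes tested (7.8% and 5.6%), so lists of this size cannot show a lack of peaks. Cytoplasmic ribosomal proteins had peaks in 4 of 88 genes in the dTet list (RpL22, RpL5, RpS14b and RpS3) and in 1 of 88 in the yellow list (RpL5). Their intervals of 1.78 to 11.1% in the dTet list and 0.201 to 6.16% in the yellow list overlap that of the members.

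Near the members, peaks belonged to neighbouring genes. The peak closest to a member lay 135 bp from mRpL9 in the dTet list (3R, 11157445 to 11158431) and 458 bp from it in the yellow list (11157768 to 11158316). Both peaks touched an exon of FK506-bp1, now Fkbp39, a peptidyl-prolyl isomerase whose exon overlaps that of mRpL9 by 4 bp. It was the only partner of a shared exon with a peak. FK506-bp1 had a signal of 16.4 and 17.5 in the knockdown libraries, against 16.6 and 17.6 in the control libraries, far above mRpL9. mRpS21 had a peak 1509 bp away in the dTet list (3R, 9209040 to 9210454) and 1737 bp away in the yellow list (9209268 to 9210111), in both cases in Droj2, which encodes a co-chaperone of the DnaJ family. mRpS26, the member with the lowest log2 change, had a peak 1150 bp away in the yellow list only (3L, 18101749 to 18102085), in an exon of CG5147, now Polr3D, a subunit of RNA polymerase III. In the dTet list the nearest peak to mRpS26 was 152509 bp away, and with 1 sample per list this difference was not tested. The nearest peak to mRpS35 lay in an exon of dTet in both lists, 6405 bp away in the dTet list and 6320 bp away in the yellow list. The median distance from a member to the nearest peak was 58190 bp in the dTet list and 69207 bp in the yellow list. The dTet list held 964 peaks, with 591 on chromosome arms, and the yellow list 1018, with 479 on arms. Peaks also differed in width, at 987 against 549 bp near mRpL9 and 1415 against 844 bp near mRpS21, but 783 against 1099 bp near mRpS35. Neither the distances nor the shares of genes with a peak were adjusted for this.

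Among genes that work with the mitochondrial ribosome, 0 passed the limma test in any of the 5 lists that follow, and mTerf3 alone had an unadjusted p under 0.05. Of the 2 small subunit proteins with other names, tko, the counterpart of bacterial S12, had 1.04 and 0.488 in the knockdown libraries, against 0.762 and 0.200 in the control libraries, and was below the level for testing. bonsai, the counterpart of S15, had 2.89 and 2.40, against 2.57 and 1.4, a log2 change of 0.31. Of 5 tested translation factors, the elongation factor gene ico, now mEFG1, had the highest log2 change, 0.46, and CG6412, now mEFTs, the lowest, -0.36. Of 9 tested tRNA synthetases, Aats-his had the highest, 0.39, and CG7441, now TrpRS-m, the lowest, -0.46. Of 10 tested genes of mitochondrial genome expression and maintenance, mtSSB had the highest log2 change, 0.34, and mTerf3 the lowest, -1.02. The median of that list was 0.08, with 6 genes above 0 and 4 below. The signal of mTerf3 was 0.295 and 0.361 in the knockdown libraries, against 2.09 and 1.36 in the control libraries. It reached the level for testing only through the control libraries. mTerf3 encodes a member of the family of mitochondrial transcription termination factors, and its adjusted p was 0.9995 (limma). The 40 genes of oxidative phosphorylation had a median log2 change of -0.07, from -0.39 for CoIV to 0.41 for CoVIIc, both subunits of cytochrome c oxidase. The cytoplasmic ribosomal proteins, of which 80 were tested and 0 passed, had a median of 0.01, from -0.37 for RpS15Ab to 0.22 for RpL13.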

How the data were processed

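Drosophila S2 cells were profiled by polyA RNA-seq (2 dTet knockdown and 2 control libraries) and by hMeRIP-seq of total RNA (1 dTet CRISPR and 1 yellow CRISPR sample). The other 5 of 11 samples were not analysed here. Each sample's group and replicate number come from its label. The members and gene lists were chosen with earlier results of these data known.

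Reads were aligned with BWA to dm3 and peaks called with MACS 1.4, per the submitters' processing notes. The annotation, the read counter, duplicate removal, the peak threshold and the use of input were not given in the sources used here. The deposited RNA-seq files list a signal (coverage) per exon. With a tolerance of 0.05 read, 100% of 27052 to 27973 exons checked per library held whole reads in their 40-bp bins after division by 1 factor per library, so the values are coverage and not counts, and no count test was run. The deposited peak lists give positions only. Exon positions are as in the files and can be off by 1 bp, and peak starts are counted from 1.

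Overlapping exons of a gene were merged into clusters represented by the longest exon, and a gene's signal was averaged over its clusters with their bins as weights. Genes whose signal averaged 1 or more over the libraries were tested on log2(signal + 1) with limma 3.58.1 (lmFit, eBayes with trend) in R 4.3.3, two-sided, with Benjamini-Hochberg adjustment over all genes tested and a threshold of 0.05. The fit was tested on simulated data. An exact permutation test of 2 against 2 libraries cannot give a two-sided p below 0.333 and was not used. An exon counted as shared, or a peak as exonic, from 1 bp of overlap. Intervals on shares are 95% Wilson intervals, and a count of 0 was given a limit of 3 counts, for counting error only. Alternatives were other pseudocounts (0.1 and 5), filters (none and a mean signal of 5), scalings, exon choices, overlap rules, the replicate number as a block and each library left out. A table of current names was used for symbols: all 72 members were current symbols, and mRpL53 of that table was not analysed here. Per subunit, values are given for the 5 largest log2 changes in each direction, the 5 highest and 5 lowest mean signals, members with over 50% of their exonic length shared, and the mRpS18 paralogs, and per list for the largest change in each direction. Members named for a nearby peak, a partner gene or their distance to dTet were chosen after their values were seen. The 10 germline genes and 6 fat body genes used as markers summed to at most 3.18 and 0.486 in any library.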

Additional observations from a re-analysis of the deposited data

How the results depend on the processing

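No member and no member exon passed the limma test under any alternative run. Among all genes 0 passed, except that 3 did without knockdown library 1 (range 0 to 3 with each library left out). The pseudocount set the size of the log2 changes and no call: with 0.1 and with 5, the change was -1.35 and -0.39 for mRpL49, -1.64 and -0.26 for mRpL13 and -1.49 and -0.42 for mRpS26. Under a minimum mean signal of 5, the median log2 change was 0.19 for all members and 0.19 for the large subunit, from 2 tested members, and the small subunit gave no value. With each library left out, the median of the small subunit ranged from -0.41 to -0.04, over the members that then reached the level for testing. With unshared exons only, the median signal was 1.56 for all members and 1.46 for the large subunit, against 1.98 and 1.90 with all exons. That choice drops every exon with any overlap, and members without an unshared exon. The medians therefore cover different genes and exon widths, and their difference does not measure the partners' signal. Shared exons numbered 7 instead of 44 when over 50% of the exon had to overlap. The log2 change of mRpL55 was -0.07 from its longest exon cluster. With each library left out, it ranged from -0.13 to 0.72 for mRpL55, from -0.14 to 0.63 for mRpL15, from -0.10 to 0.82 for mRpL9, from -0.07 to 0.17 for mRpS30, from -0.00 to 0.37 for mRpS14 and from -0.06 to 0.51 for mRpS5. The cause of these differences was not tested. With mRpS30 and mRpS18A counted in the large subunit, an alternative chosen after seeing the data, the medians were -0.11 for the large and -0.18 for the small subunit. The replicate number as a block changed no call: 0 members passed, and 7 had an unadjusted p under 0.05. The labels give replicate numbers but no pairing, and the differences between replicates of the 2 conditions had a correlation of 0.01 over 6050 genes and 0.15 over the 64 members. When a condition has 1 library left, that library is assumed to vary like the others. The 8 members below a mean signal of 1 were not tested, and mRpL13, mRpL23 and mRpL40 without control library 1, and mRpL10 and mRpS14 without knockdown library 2, fell below it and gave no value there.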
